A study of Homo sapiens with 12 samples.

Results

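The insulin main effect was the difference between cells given insulin and cells given vehicle, taken over both plasmids of the experiment. It was estimated from all 12 of the 12 libraries, 6 with insulin at 100 nM and 6 with vehicle, with the plasmid as a second factor and no interaction between them. The cells were 12Z, an immortalized line of human endometriotic epithelial cells. They were transiently transfected with pCAG empty vector or with pCAG Viperin, which drives expression of RSAD2, the interferon-inducible gene that encodes Viperin. All cells were then kept without serum for 4 h before insulin or vehicle was added, and RNA was collected 24 h later. The 4 groups of 3 libraries are called Control (empty vector, vehicle), Insulin (empty vector, insulin), Viperin (Viperin plasmid, vehicle) and Viperin + Insulin (Viperin plasmid, insulin). Where the 3 values of a group are listed, they run from lowest to highest and not by library number. One cell line was used, so the libraries sample repeat experiments on the same cells.

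The libraries held 25979022 to 40305521 assigned read pairs with vehicle and 32543485 to 46889002 with insulin. RSAD2 ranged from 2.28 to 5.19 CPM (counts per 1000000 assigned read pairs, TMM-scaled) in the 6 empty vector libraries and from 384 to 665 CPM in the 6 Viperin plasmid libraries, as the labels of plasmid require. The highest shares of reads mapped to more than 1 place, 13.9% and 12.1%, were those of Control library 1 and Viperin library 3. Mitochondrially encoded genes took a lower share of the counts with insulin, at 4.78% ± 0.42 (SD, n = 6) against 5.58% ± 0.61 (exact two-sided permutation test within plasmid, p = 0.005, the smallest that 400 arrangements allow, 0.0167 when adjusted over the 10 library measures compared). The label of epithelial cell held in part. The keratins KRT8, KRT18 and KRT19 had median levels of 1307, 825 and 462 CPM, whereas EPCAM and CDH1, defining markers of epithelium, stayed at or below 0.828 and 2.003 CPM in every library. The stromal and mesenchymal genes VIM, COL1A1 and COL3A1 had medians of 1503, 1417 and 1606 CPM. Of 15 leukocyte markers, CD3D, CD163 and NKG7 had no count in any library, while CD14 ranged from 4.52 to 5.80 CPM and PTPRC from 0.479 to 1.84 CPM. The summed CPM of 17 stromal markers ranged from 5705 to 6768 with vehicle and from 5853 to 6737 with insulin (exact permutation test, p = 0.535). That of 15 epithelial markers ranged from 2453 to 2661 and from 2587 to 2863 (p = 0.005 in the same exact test, 0.0167 when adjusted over the 10 measures). KRT8, KRT18 and KRT19 made up most of the epithelial sum. Of the 13 epithelial markers measured in the fit, 8 had a positive and 5 a negative sign. In these bulk libraries, fewer cells of a type and less RNA per cell cannot be told apart.

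Insulin binds the insulin receptor and, at high concentration, the related receptor for insulin-like growth factors. The receptor recruits IRS and GAB adaptors, which bring in phosphatidylinositide 3-kinase (PI3K) and switch on the kinase AKT. AKT keeps FOXO transcription factors out of the nucleus, so that genes which FOXO factors switch on in fasted or quiescent cells are expressed less. It also releases the mTOR complex, which favours the synthesis of protein and ribosomes and raises the translation of ATF4, a transcription factor for amino acid supply. The results begin with the receptor and the genes of this pathway, and other gene lists follow. Whether a list changed through this pathway was not tested.

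The response was broad and small. At an adjusted p under 0.001 (edgeR's quasi-likelihood test, Benjamini-Hochberg adjustment), 717 of the 23041 genes tested were called, of which 307 rose (1.33% of genes tested) and 410 fell (1.78%). At an adjusted p under 0.05, 1262 genes were higher (5.48%) and 1327 lower (5.76%). The median called gene rose by 13.7% or fell by 14.3%, while the median log2 fold change of all genes tested was -0.0022. A total of 18 called genes changed by more than 1.5-fold, 2 of them higher and 16 lower, and 3 genes changed by more than 2-fold, all lower. These 3 were CYSLTR2, ALOX15 and ZNF704. The genes that rose had a median level of 86.4 CPM and those that fell 47.8 CPM. Of the 717, 697 are annotated as protein coding and 10 as long noncoding RNA. The plot of fold change against level shows the asymmetry at low expression.

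**Figure D1:**
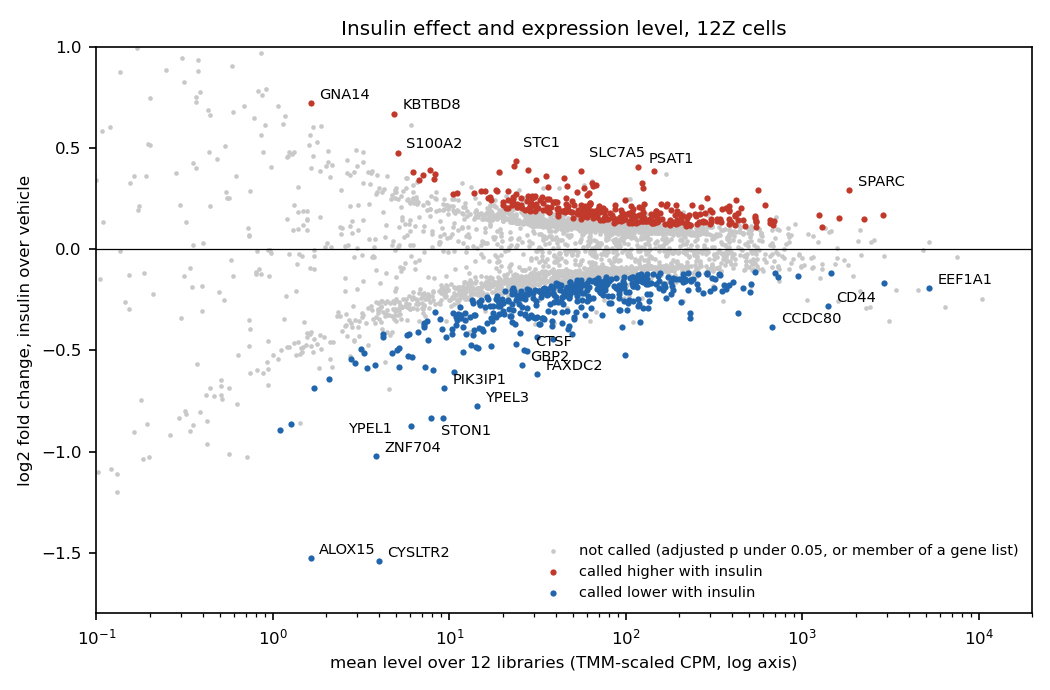
Each point is a gene, with its mean level over 12 libraries in CPM (log axis) and its log2 fold change with insulin. Red and blue points are the 307 and 410 genes called higher and lower at an adjusted p under 0.001, grey points are other genes with an adjusted p under 0.05 or on a gene list, and 73 genes, none of them called, lie outside the axes. The largest changes, CYSLTR2, ALOX15 and ZNF704, are all decreases at low level, and most called genes lie within 0.5 of 0.

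The same genes were compared within each plasmid, where 3 insulin libraries stand against 3 vehicle libraries. In 664 of the 717 called genes the 3 insulin libraries lay on one side of the 3 vehicle libraries in both plasmids, 286 higher and 378 lower. The same held for 3.84% of all genes tested in the higher direction and 3.69% in the lower, and the called genes owe their place to these same libraries. Taken without regard to plasmid, the 6 insulin libraries lay apart from the 6 vehicle libraries in 478 of the 717, against 2.12% of all genes tested in the higher and 1.99% in the lower direction. Separate fits that share no library gave a check that the pooled fit cannot. With Viperin plasmid libraries alone, 307 genes were called, and 302 of them (98.4%) had the same sign in the empty vector libraries, 267 with an unadjusted p under 0.05 there. With empty vector libraries alone, 72 genes were called, and 71 of them (98.6%) had the same sign in the Viperin plasmid libraries. Over all genes, 62.0% had the same sign in both fits. The difference of the insulin effects between plasmids passed an adjusted p of 0.05 in 0 genes by edgeR, by DESeq2 and by limma-voom. By edgeR it was 13 genes without Insulin library 1, 8 without Control library 3, 1 to 3 without Control library 1 or 2 or Viperin library 1 or 3, 15 without Control library 1 and Viperin library 3 together and 41 with no filter on low counts. At an unadjusted p under 0.05, edgeR found 1398 (6.07%) such genes, DESeq2 865 and limma-voom 1343. Among the 717 called genes it was 43 (5.997%), close to the share over all genes.

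**Figure D2:**
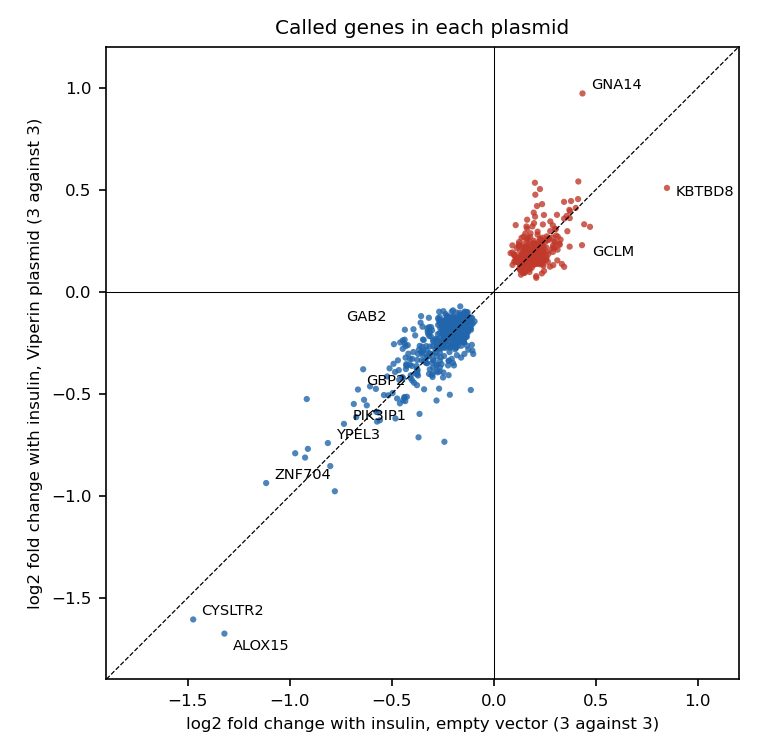
Log2 fold change with insulin of each of the 717 called genes in empty vector cells (x axis) and in Viperin plasmid cells (y axis), each from 3 libraries against 3. Red genes were called higher and blue genes lower, and the dashed line marks equal effects. All points lie in the quadrants where both effects have the same sign, and CYSLTR2 and ALOX15 lie farthest from 0.

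Transcripts of the insulin receptor, of the related receptor IGF1R and of the adaptors IRS2 and GAB2 fell with insulin. Of 19 measured receptors, adaptors and receptor phosphatases, 4 fell (21.1%, against 1.78% of all genes), 0 rose and 15 did not pass the test. The list was mixed in sign, with 9 members positive and 10 negative. Under an adjusted p of 0.05, 3 were higher (15.8%, against 5.48% of all genes) and 4 lower (21.1%, against 5.76%). The median log2 fold change of the list was -0.05. INSR, the insulin receptor, ranged from 21.75 to 30.97 CPM (median 26.3) with vehicle and from 17.9 to 23.7 (median 20.1) with insulin. The ranges overlapped across plasmids, and within each plasmid every insulin library lay below every vehicle library. Its log2 fold change was -0.37 ± 0.05 (standard error, adjusted p = 4.88e-07, edgeR), with -0.41 in empty vector and -0.33 in Viperin plasmid cells. IGF1R, the receptor for insulin-like growth factor 1, went from 95.7 to 119 CPM with vehicle to 79.8 to 98.4 CPM with insulin, a log2 fold change of -0.26 ± 0.03 (adjusted p = 2.8e-08, edgeR). IRS2, an adaptor whose gene FOXO factors are known to induce, was 46.2, 46.3 and 49.6 CPM in Control and 37.8, 39.3 and 41.9 CPM in Insulin libraries. In Viperin libraries IRS2 was 48.2, 48.5 and 49.3 CPM, and in Viperin + Insulin libraries 39.1, 40.2 and 41.0 CPM. No vehicle library fell within the range of the insulin libraries, and the log2 fold change was -0.27 ± 0.03 (adjusted p = 2.66e-07, edgeR). GAB2, a scaffold for PI3K, fell by 0.44 on the log2 scale in empty vector and by 0.19 in Viperin plasmid cells, and that difference (unadjusted p = 0.01) did not pass adjustment. IRS1, the other main adaptor, gave a log2 fold change of -0.05 (adjusted p = 0.565, edgeR) with overlapping libraries. The 4 calls held with each library left out in turn.

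Secreted modulators of the same receptors and regulators of PI3K moved in both directions. Among 10 measured genes on the list of insulin-like growth factors and binding proteins, STC1 and IGFBP5 rose (20%, against 1.33% of all genes). IGFBP6, another binding protein, fell (10%, against 1.78%). The IGFBP6 call was lost without Control library 3, Insulin library 1 or 3, Viperin library 2 or 3 or Viperin + Insulin library 2 or 3 (adjusted p of up to 0.00217). STC1, a glycoprotein hormone that also regulates IGF release by proteolysis, ranged from 18.1 to 22.2 CPM with vehicle and from 24.9 to 28.7 CPM with insulin, with no overlap (log2 fold change 0.41 ± 0.05, adjusted p = 1.45e-08, edgeR). IGFBP5, a binding protein for the growth factors, rose from 60.1 ± 3.30 to 74.8 ± 5.08 CPM (SD, n = 6). Of 40 measured PI3K, AKT and mTOR genes, 2 rose (5%, against 1.33% of all genes) and 2 fell (5%, against 1.78%). PIK3IP1, an inhibitor of PI3K, had the largest change of them. It was 9.66, 11.3 and 11.3 CPM in Control and 5.76, 6.60 and 6.87 CPM in Insulin libraries, and 10.9, 12.9 and 13.1 CPM in Viperin and 7.09, 7.285 and 9.01 CPM in Viperin + Insulin libraries. All 6 insulin libraries lay below all 6 vehicle libraries (log2 fold change -0.69 ± 0.07, adjusted p = 1.68e-09, edgeR). PIK3R3, a regulatory subunit of PI3K, rose by 23.4%, from 50.2 to 54.6 CPM with vehicle to 61.0 to 69.1 CPM with insulin (adjusted p = 1.185e-08, edgeR). DDIT4, an inhibitor of mTOR complex 1, rose by 27.6%, from 39.4 ± 2.02 to 50.3 ± 3.35 CPM (SD, n = 6, adjusted p = 2.71e-09, edgeR). The other gene of this list that fell was RICTOR, a subunit of mTOR complex 2, and its call was lost when Control library 1, Insulin library 2 or 3, Viperin + Insulin library 1 or Viperin library 1 or 2 was removed (adjusted p of up to 0.00244).

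Among the 38 lists, FOXO and quiescence genes had the largest share of members that fell at 0.001 by edgeR. Of 37 measured members, 18 fell (48.6%, against 1.78% of all genes), 0 rose and 19 did not pass the test, and 31 of 37 had a negative sign. Their median log2 fold change was -0.20, at -0.24 in empty vector and -0.17 in Viperin plasmid cells. With each library left out in turn, 16 to 19 members fell. At 0.05, 56.8% of this list were lower, fewer than the 69.2% of the 13 mitochondrially encoded protein genes. At 0.001, DESeq2 called 19 of the 37 and 8 of those 13 lower, and limma-voom 18 and 11, so the ranking did not hold there. YPEL3, a gene tied to growth arrest and senescence, was 15.9, 18.7 and 18.9 CPM in Control and 9.88, 10.1 and 10.3 CPM in Insulin libraries. In Viperin libraries YPEL3 was 17.6, 17.9 and 19.4 CPM and in Viperin + Insulin libraries 10.4, 11.2 and 11.3 CPM. The insulin libraries were tightly grouped and far below all vehicle libraries (log2 fold change -0.78 ± 0.05, adjusted p = 6.89e-14, edgeR). CCNG2, an atypical cyclin that restrains the cell cycle, ranged from 103 to 115 CPM with vehicle and from 77.75 to 89.2 CPM with insulin (log2 fold change -0.38 ± 0.03, adjusted p = 2.22e-12, edgeR). MXI1, which opposes MYC, fell by 23.1% and FBXO32, the muscle atrophy ubiquitin ligase atrogin-1, by 27.9%. BCL2L11, which encodes the death-promoting protein BIM, fell by 14.95%, FOXO4, a FOXO factor itself, by 15.6%, ERBB3, a receptor partner of ERBB2, by 17.8% and CDKN2B, an inhibitor of CDK4 and CDK6, by 13.5% (adjusted p = 1.48e-05, 3.03e-05, 2.57e-05 and 1.06e-05, edgeR). TP53INP1, a stress gene, fell by 19% and PINK1, a kinase of mitochondrial quality control, by 11.7%. CDKN1B, the p27 inhibitor of cyclin-dependent kinases, gave a log2 fold change of -0.14 (adjusted p = 0.0133, edgeR), and TXNIP, a brake on glucose uptake, of -0.29 (adjusted p = 0.0136, edgeR), and neither passed 0.001. Without Control library 1 both did, CDKN1B with an adjusted p of 0.000649 and TXNIP of 1.08e-08. TXNIP also passed with limma-voom (0.000231), with the replicate number as a block (8.24e-05), with Viperin plasmid libraries alone (4.37e-06) and with no filter on low counts (2.9e-12), where CDKN1B passed too (0.000115). INSR, IRS2 and PIK3IP1 are also on this list.

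Promoters of these genes were read for the core of the forkhead motif, TGTTTAC on either strand, from 250 bases before to 50 bases after each transcript start in RefSeq (GRCh38.p14). A window was present for 252 of the genes that rose and 310 of those that fell. The motif stood in 2.62% of 19111 windows of all genes tested, in 6.48% of 494 windows of genes that fell and in 1.36% of 368 windows of genes that rose. Among the called FOXO and quiescence genes it stood in 6 of 20 windows, which belong to 5 of 14 genes. These 6 are shown because they are the windows of the list that hold the letters, with the motif in capitals, at chr16:30096196-30096224 (minus strand) for YPEL3, chr10:110210055-110210111 and chr10:110225983-110226011 for 2 starts of MXI1, chr22:31292455-31292483 (minus strand) for PIK3IP1, chr2:111120666-111120722 for BCL2L11 and chrX:71095863-71095891 for FOXO4.
YPEL3: ctgggctcggtGTAAACAagtccaggcgc
MXI1 first start: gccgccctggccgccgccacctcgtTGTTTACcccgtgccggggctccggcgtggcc
MXI1 second start: cgcggggagagGTAAACAaaccacgcgcg
PIK3IP1: taaagagaggcTGTTTACcagaacagcat
BCL2L11: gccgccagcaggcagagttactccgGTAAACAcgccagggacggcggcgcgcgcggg
FOXO4: cccggcgagtgGTAAACAgagacgtcagg
The letters begin at the first base after the start in YPEL3 and 223 bases before it in BCL2L11, so their position was not shared. A match describes the letters only, and binding was not measured. The gene lists were chosen with earlier results of these data known, and motif shares, here and for the motifs below, were not tested.

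**Figure D3:**
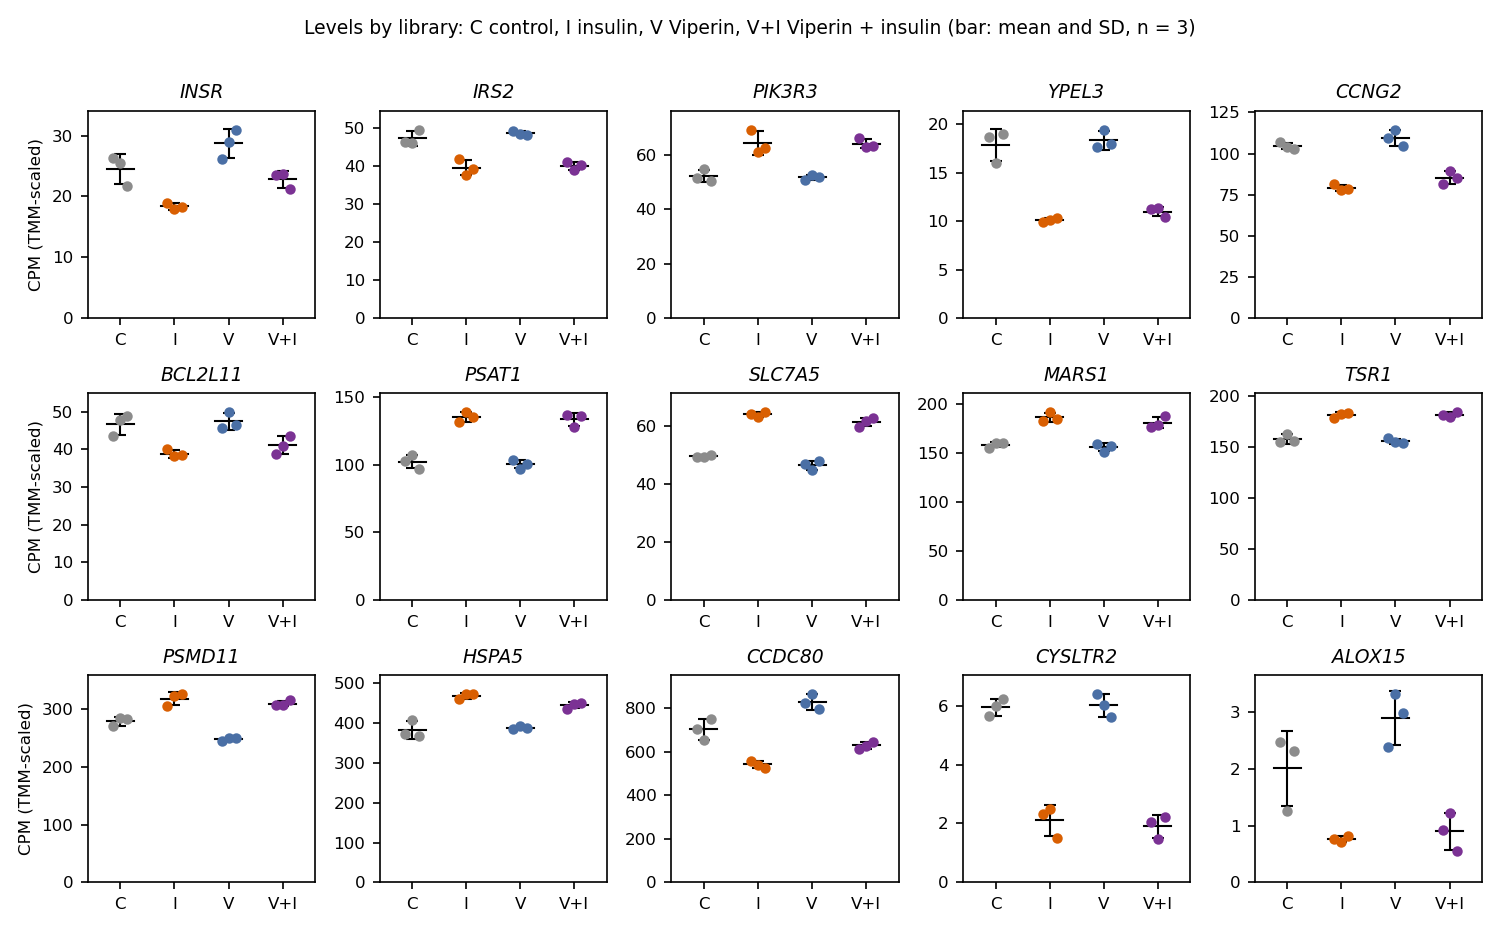
CPM (y axis, from 0) of 15 genes in the 3 libraries of Control (C), Insulin (I), Viperin (V) and Viperin + Insulin (V+I), with black bars for the mean and SD. In each plasmid the insulin libraries lie below the vehicle libraries for INSR, IRS2, YPEL3, CCNG2, BCL2L11, CCDC80, CYSLTR2 and ALOX15 and above them for PIK3R3, PSAT1, SLC7A5, MARS1, TSR1, PSMD11 and HSPA5.

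Some genes of amino acid supply rose, though not every enzyme of a pathway did. By p, PSAT1, which makes phosphoserine on the way to serine, ranked ahead of every other gene that rose. It was 97.2, 102 and 107 CPM in Control, 131, 135 and 139 CPM in Insulin, 97.05, 100.7 and 103 CPM in Viperin and 128, 136 and 137 CPM in Viperin + Insulin libraries. The insulin libraries lay at least 20 CPM above the vehicle libraries in both plasmids, with a log2 fold change of 0.41 ± 0.03 (adjusted p = 2.01e-13, edgeR). Of 21 measured serine, glycine and one-carbon enzymes, 2 rose (9.52%, against 1.33% of all genes) and 1 fell (4.76%, against 1.78%). SHMT2, the mitochondrial serine hydroxymethyltransferase, rose by 11.1%. PHGDH, the enzyme one step before PSAT1, ranged from 146 to 166 CPM with vehicle and from 150 to 163 CPM with insulin, a log2 fold change of 0.01 (adjusted p = 0.891, edgeR). MTHFD2, the mitochondrial folate enzyme, gave a log2 fold change of 0.10 (adjusted p = 0.00569, edgeR).

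Among 31 measured amino acid transporters, 4 rose (12.9%, against 1.33% of all genes) and 2 fell (6.45%, against 1.78%). Both chains of the large neutral amino acid exchanger rose together. SLC7A5, its transport chain, ranged from 44.9 to 50.01 CPM with vehicle and from 59.9 to 64.9 CPM with insulin. SLC3A2, its heavy chain, ranged from 116 to 136 CPM and from 148 to 177 CPM. Neither showed overlap, and the log2 fold changes were 0.39 ± 0.03 for each (adjusted p = 6.01e-12 and 7.6e-10, edgeR). SLC7A2, a cationic amino acid transporter, fell by 16.9% (adjusted p = 4.46e-05, edgeR). SLC7A11, the cystine transporter, was spread too widely to pass, with 44.7 to 61.6 CPM under vehicle and 47.8 to 88.2 CPM under insulin (log2 fold change 0.32 ± 0.12, adjusted p = 0.157, edgeR). The others that rose were SLC36A1, a lysosomal amino acid transporter, and SLC25A22, a mitochondrial glutamate carrier, and SLC43A1, a neutral amino acid transporter, fell. SLC36A1 and SLC25A22 each lost the call in 8 of 12 fits that leave out a library (adjusted p of up to 0.00274 and 0.00468), and SLC43A1 without Viperin + Insulin library 3 (0.00121). Only 2 transporters rose when Control library 2, any 1 Insulin library, Viperin + Insulin library 2 or Viperin library 1 was left out, and only 1 fell without Viperin + Insulin library 3. ODC1, the first enzyme of polyamine synthesis from ornithine, rose by 25.6%, from 110 ± 7.48 to 138 ± 12.4 CPM (SD, n = 6, adjusted p = 6.66e-11, edgeR).

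ATF4 itself rose by 11.9%, from 135 to 157 CPM with vehicle to 149 to 171 CPM with insulin (adjusted p = 5.55e-05, edgeR), and its libraries overlapped between plasmids. Of 28 measured ATF4 regulators and targets, 3 rose (10.7%, against 1.33% of all genes) and 0 fell at 0.001, the others being DDIT4 and PPP1R15B, a phosphatase subunit that acts on eIF2. At 0.05, 11 were higher (39.3%, against 5.48% of all genes) and 1 lower (3.57%, against 5.76%). The call of PPP1R15B was lost in 9 of the 12 fits that leave out a library (adjusted p of up to 0.00341). Without Control library 1, 5 members rose. ASNS, asparagine synthetase and a well known ATF4 target, was almost absent, at 0.184 to 0.449 CPM over all libraries. Cytosolic aminoacyl-tRNA synthetases charge tRNAs with amino acids. Of 23 measured genes on their list, which also holds the scaffold AIMP2, 6 rose (26.1%, against 1.33% of all genes), 0 fell and 17 did not pass. At 0.05, 14 were higher (60.9%, against 5.48% of all genes) and 1 lower (4.35%, against 5.76%). The median log2 fold change was 0.10. MARS1, for methionine, was 156, 160 and 161 CPM in Control and 183, 185 and 192 CPM in Insulin, and 152, 158 and 159 CPM in Viperin and 177, 179 and 188 CPM in Viperin + Insulin libraries. Every insulin library was above every vehicle library, a log2 fold change of 0.22 ± 0.03 (adjusted p = 2.54e-08, edgeR). YARS1, for tyrosine, rose by 18.5%, GARS1, for glycine, by 12.8%, WARS1, for tryptophan, by 9.39%, AIMP2, a scaffold of the synthetase complex, by 17.5% and TARS1, for threonine, by 10.3%. With each library left out in turn, 5 to 7 members rose, and WARS1 lost the call in 8 of 12 such fits (adjusted p of up to 0.00261).

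The C/EBP-ATF composite motif, TGATGNAA on either strand, stood in 2.16% of windows of genes tested, in 3.53% of windows of genes that rose and in 1.62% of those that fell. It stood in 3 of 9 windows of the called members of the synthetase list and in 1 of 10 of the called transporters. These 4 windows are the ones of both lists that hold the letters, at chr11:62881725-62881748 for SLC3A2, chr12:57488053-57488082 for MARS1, chr7:30594820-30594877 for GARS1 and chr5:33440956-33440985 for TARS1, all on the plus strand and with the motif in capitals.
SLC3A2: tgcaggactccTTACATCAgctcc
MARS1: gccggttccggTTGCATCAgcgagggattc
GARS1: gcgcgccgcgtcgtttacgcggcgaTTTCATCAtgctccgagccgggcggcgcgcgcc
TARS1: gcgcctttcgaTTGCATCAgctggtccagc
MARS1 and TARS1 share the 8 letters of the motif, placed across the start in one and just after it in the other.

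Of 46 measured genes for making ribosomes, a list that also holds MYC, 14 rose (30.4%, against 1.33% of all genes), 0 fell and 32 did not pass. At 0.05, 30 were higher (65.2%, against 5.48% of all genes) and 0 lower (against 5.76%). The median log2 fold change was 0.13, with 0.13 in empty vector and 0.12 in Viperin plasmid cells. The number that rose was 8 without Insulin library 3 or without Viperin + Insulin library 2, and 9 without Control library 2 or without Viperin library 2. TSR1, a factor of small subunit maturation, ranged from 154 to 163 CPM with vehicle and from 179 to 185 CPM with insulin (log2 fold change 0.21 ± 0.03, adjusted p = 3.65e-08, edgeR). DDX21, a nucleolar RNA helicase, rose from 280 ± 7.87 to 320 ± 9.65 CPM (SD, n = 6, adjusted p = 2.27e-07, edgeR). UTP15 and NOP56, both needed for processing of ribosomal RNA, rose by 16.7% and 12.6%. MYC, the best known activator of these genes, ranged from 29.3 to 36.8 CPM with vehicle and from 30.99 to 34.97 CPM with insulin, a log2 fold change of -0.06 ± 0.04 (adjusted p = 0.42, edgeR). Of 77 measured cytosolic ribosomal proteins, 0 rose, near the 1.33% of all genes, and 3 fell (3.9%, against 1.78%). At 0.05, 2 were higher (2.6%, below the 5.48% of all genes) and 7 lower (9.09%, against 5.76%). RPL13A fell by 11.3%, RPL22 fell by 10.97% (lost without Control library 2, Viperin library 2 or Viperin + Insulin library 2 or 3, adjusted p of up to 0.00198) and RPL3 fell by 8.74%, and the median of the list was -0.02. These families have many processed copies, so the assignment of their reads is uncertain.

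Among 41 measured translation factors, 4 rose (9.76%, against 1.33% of all genes) and 3 fell (7.32%, against 1.78%), and 34 did not pass. At 0.05, 16 were higher (39%, against 5.48% of all genes) and 6 lower (14.6%, against 5.76%). The median log2 fold change of the list was 0.07. The 3 that fell, EEF1A1, EEF2 and EIF4B, have transcripts with a 5′ terminal oligopyrimidine tract, a class whose translation mTOR controls. EEF2, the elongation factor that moves the ribosome, ranged from 2983 to 3222 CPM with vehicle and from 2585 to 2804 CPM with insulin (log2 fold change -0.17 ± 0.02, adjusted p = 3.27e-07, edgeR). EEF1A1, which brings tRNAs to the ribosome, fell by 12.5% and EIF4B, a cofactor of the helicase that opens mRNA, by 13.5%, and EEF1A1 also shares reads with processed copies. EIF4G2, a relative of the scaffold eIF4G, rose by 12.5%, from 1146 to 1198 CPM with vehicle to 1276 to 1390 CPM with insulin (adjusted p = 7.04e-07, edgeR). EIF5, EIF3B and EIF2S1, all factors of initiation, also rose. Of these EIF2S1 lost the call in 10 of 12 fits with a library left out (adjusted p of up to 0.00771) and EIF3B without Insulin library 2 or 3 (0.00156), so that 2 factors rose there.

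The E-box CACGTG, which reads the same on both strands and is bound by MYC and related factors, stood in 8.84% of windows of genes tested, in 15.2% of windows of genes that rose and in 8.3% of those that fell. It stood in 6 of 12 windows of the called ribosome biogenesis genes, in 3 of 10 of the called transporters, in 3 of 20 of the called FOXO and quiescence genes and in 1 of 19 of the called proteasome genes. A window from the transporter list and one from the ribosome list are shown, at chr16:87869607-87869662 (minus strand) for SLC7A5 and chr10:68956591-68956646 (plus strand) for DDX21, with the E-box in capitals.
SLC7A5: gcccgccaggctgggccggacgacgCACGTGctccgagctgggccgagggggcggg
DDX21: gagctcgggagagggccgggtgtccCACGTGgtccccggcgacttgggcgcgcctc
The letters begin 130 bases before the start in SLC7A5 and 31 before it in DDX21.

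The proteasome had the largest share of members that rose at 0.001 among the 38 lists. Of 38 measured subunits, 16 rose (42.1%, against 1.33% of all genes), 0 fell and 22 did not pass. At 0.05, 26 were higher (68.4%, against 5.48% of all genes) and 1 lower (2.63%, against 5.76%). The median log2 fold change was 0.14 in both plasmids, and 14 to 19 members rose with each library left out in turn. PSMD11, a subunit of the regulatory lid, was 270, 283 and 284 CPM in Control and 306, 323 and 326 CPM in Insulin libraries. In Viperin libraries PSMD11 was 245, 250 and 250 CPM, and in Viperin + Insulin libraries 307, 308 and 315 CPM. Both plasmids reached similar levels with insulin from different levels with vehicle. The log2 fold changes were 0.19 and 0.32 (0.25 ± 0.03 over both, adjusted p = 2.51e-09, edgeR), and their difference (unadjusted p = 0.0107) did not pass adjustment. PSMD3, another lid subunit, ranged from 228 to 264 CPM with vehicle and from 274 to 307 CPM with insulin, PSMD14, which removes ubiquitin from substrates, rose by 16.3%, and PSMC2, an ATPase of the base, by 13.2%. PSMA4, an alpha subunit of the core, rose by 10.99%.

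The antioxidant response core, TGACNNNGC on either strand, which NRF1 and NRF2 are known to bind, stood in 14.3% of windows of genes tested, in 18.8% of windows of genes that rose and in 10.7% of those that fell. It stood in 6 of 19 windows of the called proteasome genes and in 5 of 9 of the called members of the synthetase list. Among called transporters it stood in 3 of 10 and among called ribosome biogenesis genes in 0 of 12. Those of PSMD3 (chr17:39980745-39980803, plus strand) and PSMA4 (chr15:78540635-78540693, plus strand) are shown beside that of GCLM (chr1:93909431-93909489, minus strand), a glutathione gene that also rose, with the motif in capitals.
PSMD3: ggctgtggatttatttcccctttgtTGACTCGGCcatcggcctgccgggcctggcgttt
PSMA4: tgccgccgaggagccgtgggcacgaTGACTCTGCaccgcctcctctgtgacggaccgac
GCLM: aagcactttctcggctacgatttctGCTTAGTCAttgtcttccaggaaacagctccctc
GCLM, the modifier subunit of the enzyme that begins glutathione synthesis, was 55.0, 57.8 and 59.7 CPM in Control, 71.3, 77.9 and 83.85 CPM in Insulin, 54.9, 55.2 and 56.7 CPM in Viperin and 62.3, 66.0 and 67.0 CPM in Viperin + Insulin libraries. No insulin library overlapped a vehicle library, and the log2 fold changes were 0.43 and 0.23 in empty vector and Viperin plasmid cells (0.33 ± 0.04 over both, adjusted p = 7.71e-07, edgeR; unadjusted p = 0.00535 for the difference, which did not pass adjustment). Of 27 measured NRF2 and glutathione genes, GCLM rose and GPX4, a glutathione peroxidase, fell by 9.68%.

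HSPA5, the chaperone BiP of the endoplasmic reticulum, was 367, 373 and 408 CPM in Control, 459, 471 and 472 CPM in Insulin, 385, 387 and 392.3 CPM in Viperin and 435, 448 and 449 CPM in Viperin + Insulin libraries, with no overlap (log2 fold change 0.24 ± 0.03, adjusted p = 5.05e-09, edgeR). Of 30 measured ER chaperone and unfolded protein response genes, 3 rose (10%, against 1.33% of all genes) and 0 fell, the others being HYOU1 and DNAJB11, both partners of BiP (DNAJB11 reached an adjusted p of 0.00138 without Insulin library 3, Viperin library 1 or 2 or Viperin + Insulin library 3), and the median log2 fold change was 0.04. Chaperones on no list were chosen after their values were seen. CCT5, a subunit of the cytosolic chaperonin that folds actin and tubulin, rose by 16.6%, HSPH1, a partner of HSP70, by 15.9% and SERPINH1, the collagen chaperone HSP47, by 15.2% (adjusted p = 1.82e-09, 1.69e-08 and 2.88e-08, edgeR).

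**Figure D4:**
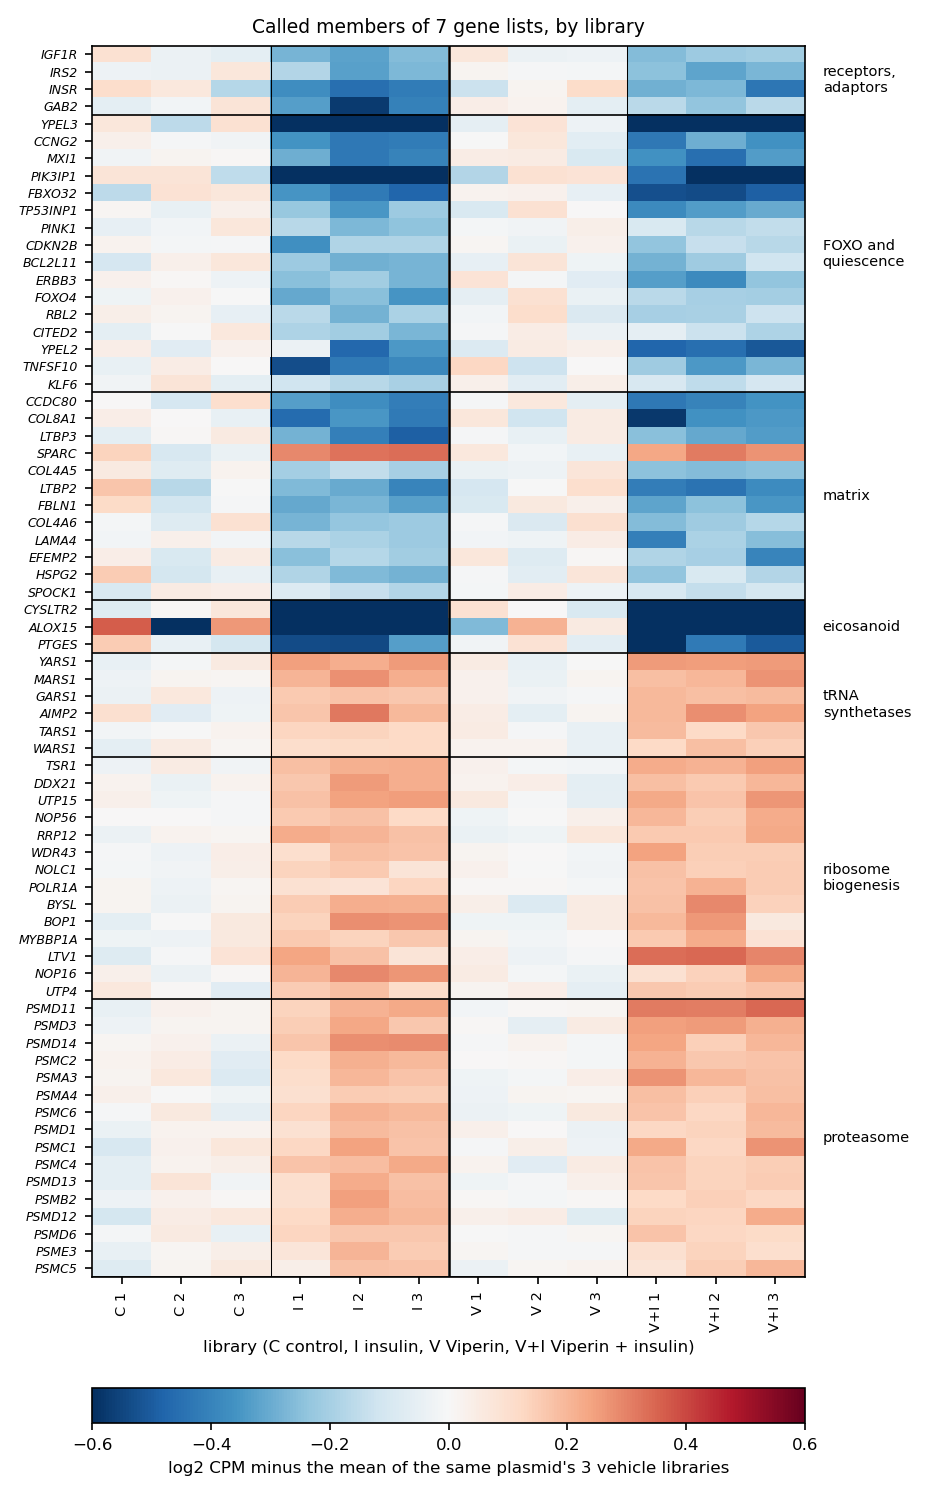
Rows are the 71 called members of 7 gene lists and columns the 12 libraries. Colour gives log2 CPM minus the mean of the 3 vehicle libraries of the same plasmid, limited at 0.6 on either side, which 25 values pass. The receptor, FOXO, matrix and eicosanoid rows are blue in both sets of insulin columns, except SPARC, and the synthetase, ribosome and proteasome rows are red in both.

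In glucose metabolism, 4 of 25 measured glycolysis genes rose (16%, against 1.33% of all genes) and 0 fell. HK2, the inducible hexokinase, ranged from 43.99 to 46.5 CPM with vehicle and from 49.5 to 56.7 CPM with insulin (log2 fold change 0.24 ± 0.03, adjusted p = 2.66e-06, edgeR). SLC2A1, the glucose transporter GLUT1, rose by 14.2%, HK1, the constitutive hexokinase, by 10.4% and LDHA, lactate dehydrogenase A, by 9.53%. LDHA lost the call without Insulin library 2 or 3 or Viperin library 2 (adjusted p of up to 0.00268). Of 26 measured genes of the pentose phosphate pathway and nucleotide synthesis, 2 rose (7.69%, against 1.33% of all genes) and 0 fell. PRPS1, which makes the ribose donor PRPP, rose by 14.1% and CTPS1, which makes CTP, by 15.1%. Among 29 other targets of hypoxia-inducible factor, 2 rose (6.9%, against 1.33% of all genes) and 3 fell (10.3%, against 1.78%). DDIT4 and STC1 were the ones that rose. NDRG1, a stress gene, fell by 17.1% (adjusted p = 1.87e-09, edgeR), and BNIP3L, a receptor for mitophagy, fell by 9.59%, a call lost in 8 of 12 fits with a library left out (adjusted p of up to 0.00313).

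The few lipid synthesis genes that were called all fell. Of 28 measured genes of cholesterol synthesis and uptake, 0 rose and 3 fell (10.7%, against 1.78% of all genes), and at 0.05 8 were lower (28.6%, against 5.76%) and 0 higher. TM7SF2, a sterol reductase, ranged from 96.2 to 106 CPM with vehicle and from 77.7 to 84.4 CPM with insulin (log2 fold change -0.30 ± 0.03, adjusted p = 6.01e-10, edgeR). SREBF2, the sterol-responsive transcription factor, also fell, and its adjusted p reached 0.00424 when single libraries were removed. Only 1 gene fell without Control library 1, any 1 Insulin library, Viperin + Insulin library 3, Viperin library 1 or Viperin library 3. Of 19 measured fatty acid synthesis genes, 0 rose and 2 fell (10.5%, against 1.78% of all genes), ELOVL6, an elongase, by 12.3% and FADS2, a desaturase, which fell by 7.87%. FADS2 lost the call at an adjusted p of 0.00101 without Viperin + Insulin library 3.

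EdgeR called 0 of 49 measured nuclear-encoded respiratory chain subunits and limma-voom 0, and DESeq2 called 1 higher. At 0.05, 3 were higher (6.12%, near the 5.48% of all genes), and the median log2 fold change was 0.01. The 13 mitochondrially encoded protein genes had a median of -0.25, and all 13 had a negative sign. At 0.001, edgeR called 0 of them, and at 0.05 9 were lower (69.2%, against 5.76% of all genes), with 12 at an unadjusted p under 0.05. At 0.001, DESeq2 called 8 lower and limma-voom 11. MT-CYB, a subunit of complex III, ranged from 2808 to 4637 CPM with vehicle and from 2424 to 3010 CPM with insulin (log2 fold change -0.35 ± 0.07, adjusted p = 0.0109, edgeR). MT-ND4, of complex I, gave a log2 fold change of -0.29 (adjusted p = 0.00512, edgeR) and MT-CO1, of complex IV, of -0.25 (adjusted p = 0.029, edgeR), both with overlapping libraries. The count at 0.001 was 5 without Control library 3 and 1 without Control library 2, Insulin library 1 or 2, Viperin + Insulin library 3 or Viperin library 3.

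Most of the matrix and adhesion genes that were called fell. Of 69 measured collagens and matrix glycoproteins, 11 fell (15.9%, against 1.78% of all genes) and 1 rose (1.45%, near the 1.33% of all genes). The other 57 did not pass, and the median log2 fold change was -0.05. CCDC80, a secreted matrix protein, was 654.5, 703 and 752 CPM in Control and 527, 542 and 558 CPM in Insulin libraries. In Viperin libraries CCDC80 was 796.5, 826 and 865 CPM, and in Viperin + Insulin libraries 615, 628 and 646 CPM. The drop was of like size in both plasmids, from a higher level with the Viperin plasmid (log2 fold change -0.39 ± 0.03, adjusted p = 8.7e-13, edgeR). COL8A1, a short-chain collagen, fell by 25.1%, LTBP3 and LTBP2, which bind latent TGF-beta or matrix fibres, by 21.2% and 22.3%, FBLN1, a fibulin, by 18.9% and COL4A5, a chain of basement membrane collagen, by 14.1%. SPARC, a collagen-binding glycoprotein, rose by 22.4%, from 1660 ± 179 to 2029 ± 160 CPM (SD, n = 6, adjusted p = 2.84e-07, edgeR), with overlap between but not within plasmids. It was the one matrix gene that rose, and 3 rose without Control library 1. Of 17 stromal marker genes 2 fell, MME, a peptidase of endometrial stroma, which fell by 11.16%, and PDGFRB, a receptor of fibroblasts and pericytes, which fell by 16.1%. At 0.05, 5 of the 17 were lower (29.4%, against 5.76% of all genes) and 0 higher.

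Of 40 measured integrins and adhesion molecules, 4 fell (10%, against 1.78% of all genes) and 1, the protocadherin PCDH10, rose (2.5%, against 1.33%). The rise did not hold when any library other than Control 2 or Insulin 3 was left out (adjusted p of up to 0.00771). JUP, the junction protein plakoglobin, ranged from 132 to 144 CPM with vehicle and from 98.1 to 113 CPM with insulin (log2 fold change -0.36 ± 0.03, adjusted p = 1.99e-11, edgeR). CD44, the hyaluronan receptor, fell by 17.7%, from 1524 ± 44.7 to 1254 ± 79.1 CPM (SD, n = 6, adjusted p = 1.54e-09, edgeR). NCAM1, a neural cell adhesion molecule, fell by 18.7%. ITGB4, the integrin of hemidesmosomes, fell by 20.99%. Of 13 measured epithelial markers KRT8 alone was called (7.69% of the list higher, against 1.33% of all genes). It rose by 8.03% (adjusted p = 0.00098, edgeR), and its adjusted p reached 0.0071 when single libraries were removed. It kept the call only without Control library 1, Control library 3 or Insulin library 1. Among 40 measured genes on the list of matrix proteases and inhibitors, 2 rose (5%, against 1.33% of all genes) and 2 fell (5%, against 1.78%). ADAM19 and LOXL2, a lysyl oxidase, rose, and MMP2 and MMP14, matrix metalloproteinases, fell. The number that rose was 4 without Control library 1 and 1 without Control library 3, LOXL2 reaching an adjusted p of 0.01. No member fell on removal of Viperin library 3 or Viperin + Insulin library 1 or 3, and 1 fell without Control library 1, Insulin library 1 or 3, Viperin library 1 or Viperin + Insulin library 2. ADAM19, a membrane protease, rose from 35.4 ± 0.961 to 41.6 ± 2.11 CPM (SD, n = 6, adjusted p = 8.168e-06, edgeR).

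**Figure D5:**
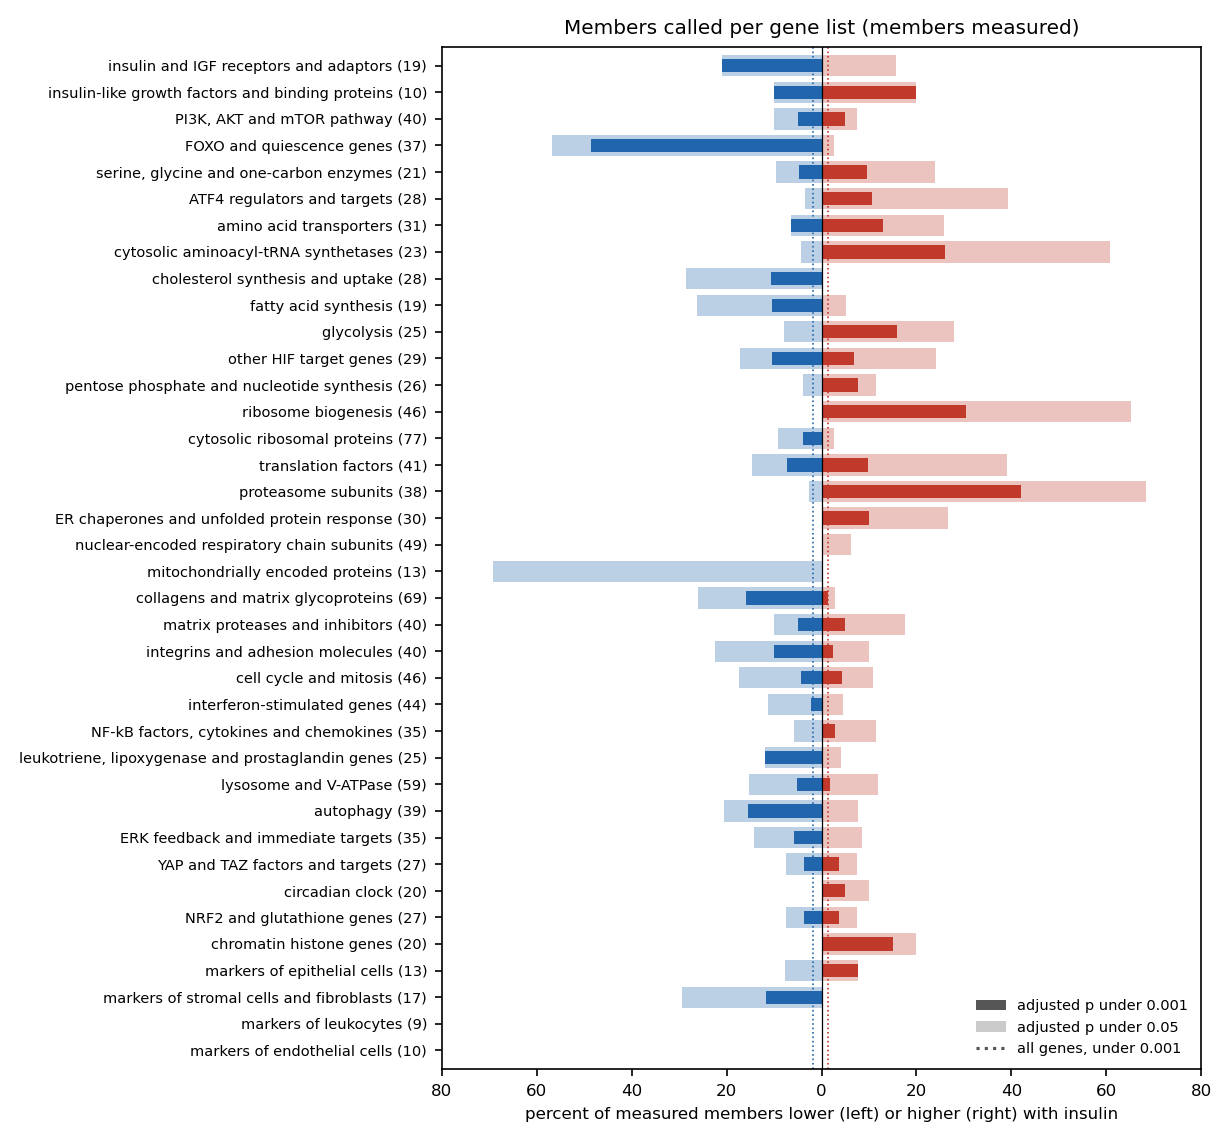
Percent of the measured members of each of 38 gene lists (number measured in brackets) that were lower (left, blue) or higher (right, red) with insulin, at an adjusted p under 0.001 (dark) and under 0.05 (light). Dotted lines mark the shares of all genes tested at 0.001, 1.78% lower and 1.33% higher. FOXO and quiescence genes extend farthest to the left among dark bars and proteasome subunits farthest to the right. Among light bars the mitochondrially encoded proteins extend farthest to the left.

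The largest decreases of all lay in lipid mediator genes. CYSLTR2, a receptor for cysteinyl leukotrienes, was 5.64, 5.97 and 6.22 CPM in Control and 1.503, 2.33 and 2.48 CPM in Insulin libraries. In Viperin libraries it was 5.63, 6.003 and 6.39 CPM, and in Viperin + Insulin libraries 1.46, 2.05 and 2.21 CPM. The insulin libraries held the lower level in both plasmids, and CYSLTR2 fell by 65.7% (log2 fold change -1.54 ± 0.10, adjusted p = 3.64e-14, edgeR), from 48 to 257 counts per library. ALOX15, the lipoxygenase that oxidizes arachidonic and linoleic acid, was 1.254, 2.30 and 2.47 CPM in Control, 0.709, 0.767 and 0.822 CPM in Insulin, 2.39, 2.97 and 3.31 CPM in Viperin and 0.552, 0.92 and 1.21 CPM in Viperin + Insulin libraries. With 26 to 118 counts per library its spread was wide, and Control library 2 (1.254 CPM) lay close to the highest insulin library (1.21 CPM). The log2 fold change was -1.53 ± 0.17 (adjusted p = 1.47e-08, edgeR). PTGES, which makes prostaglandin E2, fell by 29.6%, from 12.7 to 15.3 CPM with vehicle to 8.54 to 10.9 CPM with insulin (adjusted p = 5.26e-08, edgeR). These were the 3 called members (12%, against 1.78% of all genes lower) among 25 measured leukotriene, lipoxygenase and prostaglandin genes, 0 rose, and the list's median was -0.0046. The 3 calls held with each library left out.

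Of 44 measured interferon-stimulated genes, 1 fell (2.27%, near the 1.78% of all genes) and 0 rose, with a median log2 fold change of 0.03. GBP2, a guanylate-binding protein, ranged from 26.9 to 34.4 CPM with vehicle and from 19.6 to 22.1 CPM with insulin (log2 fold change -0.57 ± 0.05, adjusted p = 5.98e-11, edgeR). Of 35 measured NF-kB factors, cytokines and chemokines, 1 rose (2.86%, against 1.33% of all genes) and 0 fell. CCL2, a chemokine for monocytes, rose by 35.1%, from 17.4 to 23.3 CPM with vehicle to 24.8 to 29.5 CPM with insulin (adjusted p = 0.000253, edgeR). It lost the call without Insulin library 3, Viperin library 1 or Viperin + Insulin library 1, with an adjusted p of up to 0.00149. F3, tissue factor, rose by 31.3%, from 22.96 to 25.2 CPM to 29.3 to 36.2 CPM (adjusted p = 1.37e-07, edgeR). Among 27 YAP and TAZ factors and targets it was the one gene that rose (3.7%, against 1.33% of all genes). AMOTL1 was the one that fell (3.7%, against 1.78%), and it kept the call only without Control library 1, Control library 3 or Viperin library 2 (adjusted p of up to 0.00552 otherwise). SERPING1, the C1 inhibitor of complement, fell by 29.1% (adjusted p = 4.38e-11, edgeR).

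The remaining lists were mixed. Of 46 measured cell cycle genes 2 rose (4.35%, against 1.33% of all genes) and 2 fell (4.35%, against 1.78%). CCND1, cyclin D1, rose by 14.8% and CDC20, an activator of the anaphase-promoting complex, by 12.4%. CCNE2, cyclin E2, fell by 12.9% and MCM5, a subunit of the replicative helicase, by 9.94%. MCM5 reached an adjusted p of 0.001015 without Viperin + Insulin library 3. Of 59 measured lysosomal genes 3 fell (5.08%, against 1.78% of all genes) and 1, the proton pump subunit ATP6V1A, rose (1.69%, near the 1.33% of all genes). The rise was lost when any library other than Control 2 or Viperin 1 was removed (adjusted p of up to 0.0047). CTSF, a cysteine cathepsin, ranged from 27.4 to 37.5 CPM with vehicle and from 18.4 to 25.8 CPM with insulin (log2 fold change -0.50 ± 0.05, adjusted p = 1.35e-10, edgeR), and CTSB, another cathepsin, and TPP1, a peptidase, also fell. Of 39 measured autophagy genes 6 fell (15.4%, against 1.78% of all genes), among them the cargo receptors NBR1, which fell by 12.99%, and OPTN, by 12.3%, and 0 rose, and 3 fell without Viperin + Insulin library 3. Of 20 measured histone genes 3 rose (15%, against 1.33% of all genes) and 0 fell. H2AC6 rose by 24.1%, H2BC12 by 23.6% and H2BC5 by 16.9%, but members of these clusters share near-identical sequence and their reads are uncertain. H2BC5 reached an adjusted p of 0.00214 with single libraries left out, losing the call in 5 of 12 such fits. Of 35 measured ERK feedback and immediate target genes ERBB3 and ETV1, an ETS factor, fell (5.71%, against 1.78% of all genes) and 0 rose, although 2 rose without Insulin library 1 and 1 rose without Control library 1, Viperin library 2 or Viperin library 3. Of 20 clock genes 1, the bZIP factor TEF, rose (5%, against 1.33% of all genes) and 0 fell. That rise was lost without Insulin library 2, Viperin library 1 or Viperin library 2 (adjusted p of up to 0.00105). Of 9 measured leukocyte and 10 endothelial markers, edgeR called 0 at 0.05, DESeq2 and limma-voom called 0 at 0.001, and 2 and 3 had an unadjusted p under 0.05.

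Of the 717 called genes, 568 lay outside every list, and some of these were among the clearest changes. FAXDC2, a membrane protein of the fatty acid hydroxylase family, was second by p over all genes, with 34.3 to 39.9 CPM under vehicle and 21.6 to 28.6 CPM under insulin (log2 fold change -0.61 ± 0.04, adjusted p = 6.49e-14, edgeR). YPEL1, a relative of YPEL3, fell by 45.5%, STON1, an endocytic adaptor, by 43.9% and MEGF6, a secreted protein with EGF-like repeats, by 43.9%. For each of these, every insulin library lay below every vehicle library of its plasmid. ZNF704, a zinc finger protein, fell from 5.19 ± 0.61 to 2.51 ± 0.18 CPM (SD, n = 6), so that it fell by 50.7% (adjusted p = 1.855e-10, edgeR), and FAM78B, a gene of unknown function, by 45.1%. HDAC5, a class II histone deacetylase, fell by 25.2%, PALM, a membrane-bound phosphoprotein, by 26.3% and CYBRD1, a ferric reductase, by 19.7% (adjusted p = 1.9e-11, 3.92e-11 and 1.61e-11, edgeR).

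On the other side, 2 genes rose by more than 1.5-fold. KBTBD8, an adaptor of a ubiquitin ligase, ranged from 2.73 to 4.77 CPM with vehicle and from 5.15 to 6.66 CPM with insulin, with no overlap (log2 fold change 0.67 ± 0.10, adjusted p = 2.02e-06, edgeR). GNA14, an alpha subunit of heterotrimeric G proteins, ranged from 1.09 to 1.58 CPM with vehicle and from 1.48 to 2.51 CPM with insulin, and Control library 1 and Insulin library 3 overlapped (log2 fold change 0.72 ± 0.15, adjusted p = 0.000408, edgeR). Its call was lost without Insulin library 1, Viperin library 1, 2 or 3 or Viperin + Insulin library 2 or 3, with an adjusted p of up to 0.00375. S100A2, a calcium-binding protein of epithelia, rose by 39.3%, IFRD1, a transcriptional coregulator, by 28.8% and RCAN1, an inhibitor of calcineurin, by 24.2%, each with no overlap between the 6 insulin and the 6 vehicle libraries (adjusted p = 4.53e-05, 6.6e-09 and 1.57e-08, edgeR).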

How the data were processed

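Per the labels and the study's methods, mRNA was sequenced as 50 bp pairs, with 3 independent experiments stated per condition. The authors trimmed reads with cutadapt and Trim Galore, used STAR for alignment to hg38 and deposited raw read counts per gene, unnormalized, on 3 strand settings. Versions of these tools are not given there. The methods name a mouse GENCODE release, and the treatment text names a pBabe vector where the sample labels give pCAG. Counts on the reverse strand were used, and 60357 of 60617 gene identifiers took names from GENCODE 44.

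The 23041 genes that averaged 1 count or more per library entered the fit, made with edgeR 4.0.16 in R 4.3.3 after TMM scaling (robust quasi-likelihood, prior count 2), on plasmid and treatment, with Benjamini-Hochberg adjustment and calls at 0.001, the study's threshold. The study used DESeq2 with IHW. CPM are TMM-scaled and not per length. Values after ± are standard errors for log2 fold changes and SD for CPM. In simulated data the insulin fit made 1 false call among 23041 genes and found 40, 46 and 50 of 50 genes changed by 1.25-fold, 1.5-fold and 2-fold. These values come from 1 of 2 simulated sets, which held no plasmid effect. The 200 changed genes averaged 50 counts or more per library. Recovery of genes with fewer counts, or of changes as small as the median called ones (13.7% higher, 14.3% lower), was not tested.

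The members and gene lists were chosen with earlier results of these data known, so no list was tested as a set. Genes named come mainly from a rule that takes the 15 genes in each direction with the smallest p whose insulin libraries lie on one side in both plasmids, the 5 with the largest fold change among such genes, and up to 4 members per list. Other genes, and those given in full, were chosen after their values were seen, and some members of the lists are not reported here. Alternatives were RLE factors, RSAD2 and mitochondrial genes left out of library sizes, DESeq2 1.42.0, limma-voom (limma 3.58.1), other filters, unstranded counts, a replicate block, 4 group means, each plasmid alone and each library left out. Leaving out Control library 1 and Viperin library 3, thinning, and the alternatives for the difference between plasmids were chosen after seeing the data. Figures were drawn with matplotlib 3.10.9 under Python 3.11.15, and tables were handled with pandas 2.3.3 and numpy 2.4.6.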

Additional observations from a re-analysis of the deposited data

Results flagged for a closer look

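Of 294 groups of 6 libraries examined over the genes named and the library measures, 5 held a library whose gap to the next, divided by the range of the group, passed Dixon's 95% critical value. Chance flags about 1 group in 20, that is 5%, when all 6 values come from 1 population. Each group here mixes libraries of both plasmids, so the number of flags cannot be judged against that rate. Viperin + Insulin library 3 held 46889000 assigned read pairs, against 37576000 in the next insulin library. Control library 3 had 3222 CPM of EEF2, against 3069.1 CPM in the next vehicle library. Control library 2 had 114.6 CPM of CCND1, against 101.79 CPM in the next. For SREBF2 the lowest vehicle library was Control library 2, at 286.95 CPM against 298.14 CPM in the next. For MCM5 the lowest insulin library was Viperin + Insulin library 3, at 199.98 CPM against 218.21 CPM in the next.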

How the results depend on the processing

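Against 307 higher and 410 lower genes, DESeq2 with independent filtering called 516 higher and the fit with no filter on low counts 505 higher. Viperin plasmid libraries alone gave 113 higher and 194 lower, and empty vector libraries alone 18 and 54, with fewer samples. With each library left out, 197 (without Insulin library 3) to 321 genes were higher and 298 to 421 lower. Of the distinct list members, 76 rose and 73 fell. The higher count was 45 with Viperin plasmid libraries alone, 11 with empty vector libraries alone and 125 with no filter, and the lower count was 17 with empty vector libraries alone. The difference between plasmids was called in 0 genes, but in 5 with no filter, 2 without Control library 1 and Viperin library 3, and 1 without Viperin library 3. The mitochondrial share differed by -0.841 percentage points in empty vector and -0.754 in Viperin plasmid cells alone (p = 0.1 in each exact permutation test, the smallest that 3 against 3 allow). Genes that were not called changed sign in 5 settings. The log2 fold change of gene PHGDH was -0.0024 without Control library 2 and ranged from -0.0036 (without Viperin library 2) to 0.0225 with each library left out. That of gene ASNS was 0.0096 without Insulin library 3 and ranged from -0.229 to 0.0249 (without Viperin + Insulin library 1), and that of gene MYC was 0.0095 with empty vector libraries alone. The causes of these differences between settings were not tested. Of 133 called genes named, 38 were called under all 26 alternatives and 106 with each library left out.

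Replicate numbers are shared by the groups. The correlation of deviations between libraries of different groups with the same number ranged from -0.234 to 0.185 (median -0.051 over 18 pairs). Between those with other numbers it ranged from -0.246 to 0.226 (median -0.0025 over 36 pairs). The deviations are from means of 3 libraries, so these correlations cannot settle whether the numbers pair the libraries. A fit with the replicate number as a block called 267 higher and 375 lower genes.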
